A study of Homo sapiens with 4 samples.

Results

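The genes that build and run the DNA replication fork were examined in RNA bound by TIA1, an RNA-binding protein that controls the translation and stability of its target mRNAs. They are 50 genes listed by symbol: the origin recognition complex (ORC), the licensing factors and the kinase that fires origins, the MCM helicase with CDC45 and GINS, the replicative DNA polymerases, the sliding clamp PCNA with its loader, the single-strand DNA-binding protein RPA, the enzymes that finish Okazaki fragments, and adaptors of the fork. Every array probe other than a control whose identifier matched a listed symbol was taken, which gave 65 probes for the 50 genes among 24154 genes named on the array. After the filter on dim probes, 49 of the 50 were among the 13040 genes tested, with 61 of their probes, and the remaining gene was CLSPN.

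RNA came from KYSE180, an established line of esophageal squamous cell carcinoma (ESCC). Cytoplasmic lysates were immunoprecipitated with an anti-TIA1 antibody (TIA1 RIP, 2 arrays), and total RNA of the same line was the comparison (2 arrays). Each sample was labelled with Cy3 and hybridized alone to an Agilent whole genome array. The labels do not say whether the total RNA came from the lysates used for the immunoprecipitation, so the antibody step and the part of the cell sampled cannot be told apart. A single line was used, RNA from a control immunoprecipitation was not analysed here, and the labels do not say whether replicates are separate cultures, so that p-values measure only the spread between these samples.

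Before S phase, ORC marks an origin, CDC6 and CDT1 load the MCM2-7 ring on it, and geminin holds CDT1 in check once licensing is over. The kinase CDC7, with its activator DBF4, then helps convert the loaded ring into the active helicase together with CDC45 and GINS, and DNA polymerases alpha, delta and epsilon copy both strands behind it. TIA1 is known to bind U-rich RNA, often in 3′ untranslated regions (3′ UTRs).

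All 4 arrays carried 58717 spots other than controls, shared a slide and a scan date, and had no saturated spot. Values are log2 processed signal minus the 75th percentile of the array, so a value of 0 is the level of a probe at that percentile, and more of one transcript on an array cannot be told apart from less of the others. Total RNA replicate 2 stood apart: its 75th percentile of signal was 69.9, against 714 for total RNA replicate 1 and 1514 and 1271 for the TIA1 RIP arrays, and 32.2% of its spots were well above background, against 45.8% to 48.4%. All 10 squamous epithelial markers were above background on all 4 arrays, while of 10 markers of other cells 6 were on none, 3 (PTPRC, CD68 and ACTA2) on all 4 and COL1A1 on 3, with summed linear levels of 563 to 659 in TIA1 RIP and 943 to 1239 in total RNA for the first list and 5.77 to 11.1 and 8.12 to 9.10 for the second. GAPDH, the reference of the study, was 6.49 and 6.69 in TIA1 RIP and 7.67 and 9.63 in total RNA. TIA1 mRNA itself was -0.28 and -1.25 in TIA1 RIP and -0.48 and -0.45 in total RNA.

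No replication gene passed the adjusted threshold of 0.05 in either direction, and no gene of the array did (limma, Benjamini-Hochberg over 13040 genes, background 0% higher and 0% lower). The lowest adjusted p among the 49 was 0.776, in limma with 2 arrays a group. At an unadjusted p under 0.05, 1 was higher in TIA1 RIP (ORC6; background 1.1%) and 1 was lower (POLD1; background 4.02%). For a single gene, the exact permutation test of 2 against 2 cannot give a p below 0.333, and the number of arrays limits the precision of every value that follows.

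The median difference between TIA1 RIP and total RNA over the 49 genes was 0.47 on the log2 scale, against -0.04 over all genes tested. Its sign depended on which total RNA array was the comparison: against total RNA replicate 1 alone the median was -0.26 (all genes 0.07), and against replicate 2 alone it was 1.24 (all genes -0.29). Both TIA1 RIP arrays were above total RNA replicate 1 for 13 genes (26.5%, background 41.2%) and below it for 24 (49.0%, background 35.5%), and the other 12 lay on either side of it. Against total RNA replicate 2, both were above for 33 (67.3%, background 39.6%) and below for 14 (background 49.7%). The count above replicate 2 includes genes that passed the filter on dim probes only through TIA1 RIP, as listed below. Both TIA1 RIP arrays lay above both total RNA arrays for 13 genes (26.5%, background 19.4%) and below both for 11 (22.4%, background 21.7%). The share below was thus close to that of all genes. The 13 above include ORC4 and RFC3, which passed the filter on dim probes only through TIA1 RIP.

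**Figure D1:**
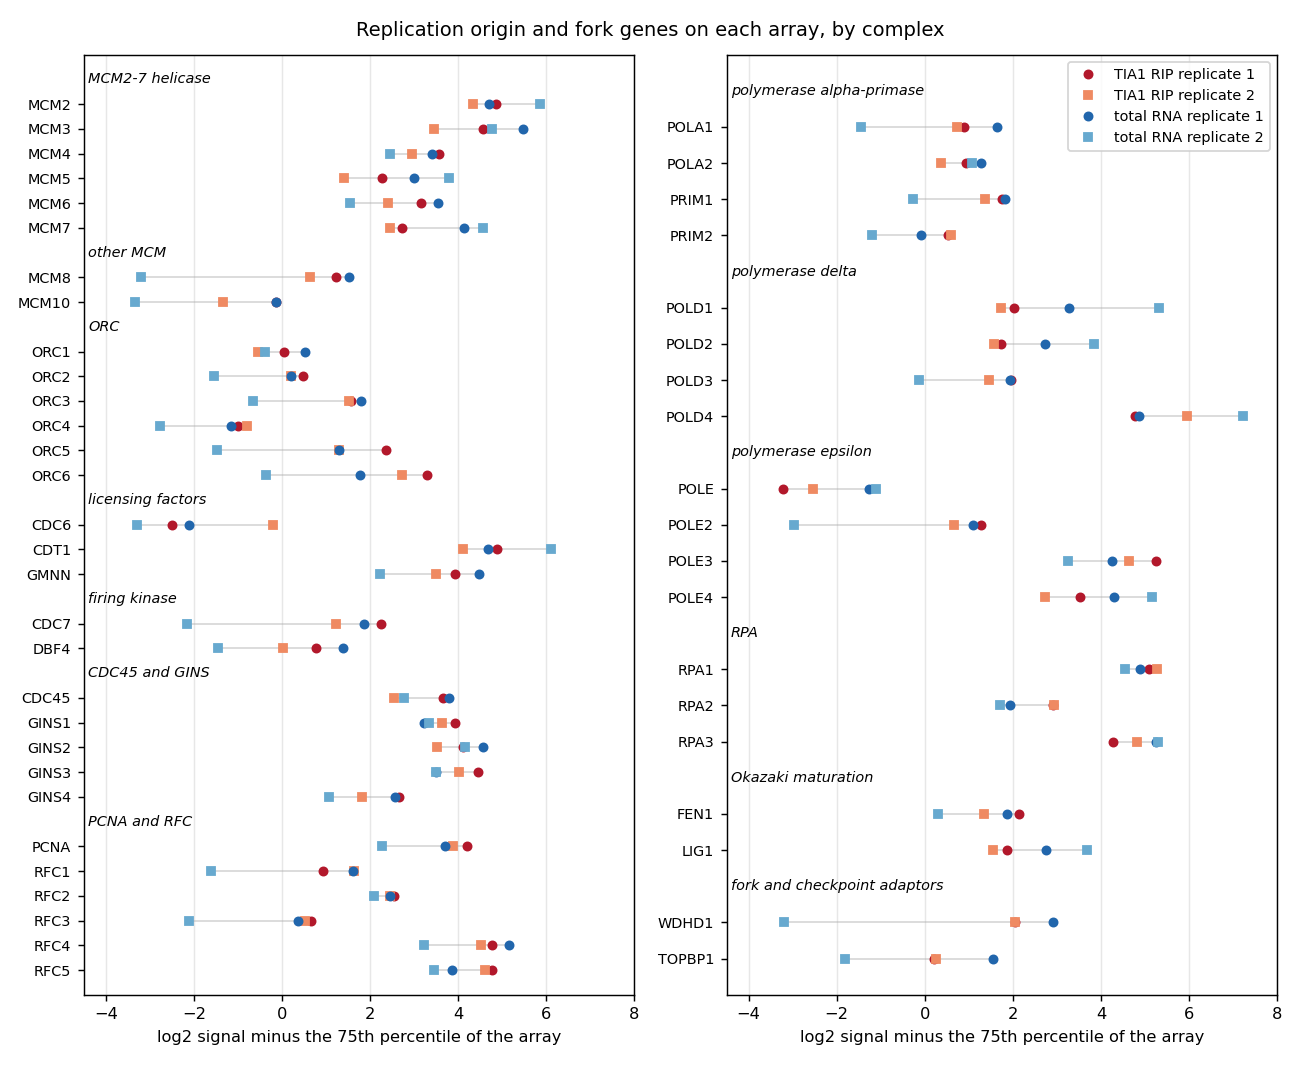
Scaled log2 signal of the 49 tested replication genes on each of the 4 arrays (x axis, log2 signal minus the 75th percentile of the array), grouped by complex, with TIA1 RIP in red and orange and total RNA in dark and light blue. Total RNA replicate 2 (light squares) lies far to the left for genes such as WDHD1, MCM8 and POLE2 and to the right for POLD1 and POLD4.

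Of the 49 genes, 14 were not well above background on total RNA replicate 2 while above it on the other 3 arrays: MCM8, MCM10, ORC2, ORC4, CDC6, CDC7, DBF4, RFC1, RFC3, POLA1, POLE, POLE2, WDHD1 and TOPBP1. Their differences against that array rest on a dim spot. All 14 passed the filter on dim probes only through their TIA1 RIP arrays. For them a value above total RNA replicate 2 is therefore not evidence of enrichment. The other 35 were above background on all 4 arrays with at least 1 probe, although not with every kept probe for PRIM2 and ORC5. Of these 35, 11 lay above both total RNA arrays (background 15.5%) and 10 below both (background 27.3%). Their median difference was 0.33 against both total RNA arrays and -0.25 against replicate 1 alone.

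TIA1 binds U-rich RNA, so the 30-base window of the 3′ UTR with the most U is shown for 4 genes whose TIA1 RIP arrays lay above both total RNA arrays (ORC6, RFC5, POLE3, RPA2) and 3 whose arrays lay below (MCM7, POLD1, POLE4). The transcripts are the Ensembl canonical ones in GENCODE on GRCh37, read 5′ to 3′ on the strand of the gene, and capitals mark runs of 3 or more U.
ORC6 (chr16:46732223-46732252, plus strand): uucaaUUUUUguguacgguaUUUUUUaUUU
RFC5 (chr12:118469335-118469364, plus strand): ccUUUUUUaUUUUaaaguuauaaggUUUUU
POLE3 (chr9:116169995-116170024, minus strand): uuccuuaguucuaaucucacgUUUUgUUUU
RPA2 (chr1:28218499-28218528, minus strand): uuacugcucuucugUUUUaUUUUgUUUUgu
MCM7 (chr7:99690430-99690459, minus strand): ucUUUcucccaugcugcacuuacuccUUUU
POLD1 (chr19:50921241-50921270, plus strand): ggagaauuaauaaaguucuggacUUUUgcu
POLE4 (chr2:75196969-75196998, plus strand): uccUUUcauuaaUUUUguucUUUUaUUUUU
These 7 are examples picked after their values were seen. Over all 13 genes that lay above both total RNA arrays the richest window held 14 to 25 U, and over all 11 that lay below it held 11 to 24 U, so the ranges overlapped. POLD1 has a 3′ UTR of only 67 bases. The window of RPA2 depends on the transcript: the one with the longest coding sequence has a 3′ UTR of 90 bases with at most 12 U in a window. These windows are a description of the transcripts, and binding at them was not measured on these arrays.

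The origin recognition complex held the gene with the highest mean difference. ORC6, a small subunit of the complex, measured 3.29 and 2.73 in TIA1 RIP against 1.77 and -0.37 in total RNA. Both TIA1 RIP values were above both total RNA values. The difference was 2.31 (SE 0.97, adjusted p = 0.776 in limma, n = 2 a group), and it was 1.24 against total RNA replicate 1 alone, the only gene of the 49 more than 2-fold above that array (background 14%). Its probe was printed 10 times on the array, and the linear signals were 14779, 8414, 2436 and 54.1 in the same order. The gene spans chr16:46723555-46732306 in GRCh37.

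ORC5 measured 2.35 and 1.30 in TIA1 RIP against 1.30 and -1.47 in total RNA, a difference of 1.91 (adjusted p = 0.776 in limma). Its TIA1 RIP replicate 2 was level with total RNA replicate 1 to 2 decimals, so the groups only just did not overlap. ORC4 measured -1.0 and -0.79 against -1.16 and -2.77, a difference of 1.07 (SE 0.88). Its 2 probes differed by 0.11 and 0.41 from total RNA replicate 1, and by 3.33 and 0.42 from replicate 2. Neither probe was well above background on replicate 2. ORC1, the largest subunit and an ATPase, was the lowest of the complex at 0.05 and -0.54 against 0.52 and -0.39, a difference of -0.31 (SE 0.82) with overlapping arrays. For the 6 ORC genes the median difference was 1.04 against both total RNA arrays and 0.20 against replicate 1 alone.

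Among the licensing factors, CDT1 and geminin (GMNN), which bind each other, had mean differences of -0.91 and 0.36. On average both were below total RNA replicate 1, at -0.19 for CDT1 and -0.77 for GMNN, but lay on opposite sides of replicate 2, at -1.62 and 1.49. CDC6, the ATPase that joins ORC before the helicase is loaded, differed by 1.36, and its TIA1 RIP arrays, at -2.49 and -0.20, lay further from each other than those of any other gene listed here. None of the 3 had groups that did not overlap. The firing kinase CDC7 measured 2.26 and 1.23 in TIA1 RIP against 1.86 and -2.15 in total RNA. TIA1 RIP thus lay on both sides of total RNA replicate 1, and the mean difference of 1.89 (SE 1.34) became -0.12 against that array alone. DBF4, its activator, differed by 0.44 on average and by -0.99 from total RNA replicate 1. CDC6, CDC7 and DBF4 were not well above background on total RNA replicate 2.

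The MCM2-7 ring, the motor of the replicative helicase, was on average below total RNA replicate 1 for 6 of 6 subunits (46.9% of all genes), with a median of -0.97 against a median of 0.07 over all genes. Both TIA1 RIP arrays were below that array for 4 of 6 (background 35.5%), namely MCM3, MCM5, MCM6 and MCM7. MCM7 measured 2.72 and 2.44 in TIA1 RIP against 4.14 and 4.56 in total RNA. The groups did not overlap, and the difference was -1.76 (SE 0.78, adjusted p = 0.776 in limma, n = 2 a group). It was -1.55 and -1.97 against total RNA replicates 1 and 2, and MCM7 was the only one of the 49 genes whose TIA1 RIP arrays were both more than 2.5-fold below total RNA replicate 1 (background 4.42%). Its 2 probes gave -1.66 and -1.87.

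MCM5 measured 2.26 and 1.42 in TIA1 RIP against 3.0 and 3.78 in total RNA, a difference of -1.56 (SE 0.82), and its 2 probes gave -1.53 and -1.58. MCM3 measured 4.56 and 3.46 against 5.48 and 4.76, a difference of -1.11 (SE 0.84). Both TIA1 RIP arrays of each gene lay below both total RNA arrays, although for MCM3 this did not hold under the other background correction or quantile normalization. MCM4 was the highest of the ring at 3.57 and 2.95 against 3.40 and 2.46, a difference of 0.33 (SE 0.82) with overlapping groups. MCM6 and MCM2 overlapped too, at 0.23 and -0.69. The subunits of the one ring thus ranged from -1.76 to 0.33 in the mean difference, and from -1.55 to -0.11 against total RNA replicate 1. MCM8, a helicase subunit outside the ring, and MCM10, which takes part in helicase activation, had mean differences of 1.76 and 0.99, and both were at -0.60 against total RNA replicate 1. Neither was well above background on total RNA replicate 2, so these mean differences rest on a dim spot there.

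CDC45 and the 4 GINS subunits complete the active helicase. GINS3 measured 4.45 and 4.02 in TIA1 RIP against 3.49 and 3.50 in total RNA, a difference of 0.74 (SE 0.77). GINS2 went the other way, with 4.11 and 3.53 against 4.57 and 4.15, a difference of -0.54 (SE 0.79). The groups did not overlap for either gene, but those of GINS2 did under the other background correction and under quantile normalization. GINS3 was the gene whose total RNA arrays were most alike among the genes described here, and its difference was 0.74 and 0.73 against replicates 1 and 2. GINS1 also lay above both total RNA arrays, at 0.55 and 0.45. GINS4 and CDC45 overlapped, at 0.42 and -0.18.

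**Figure D2:**
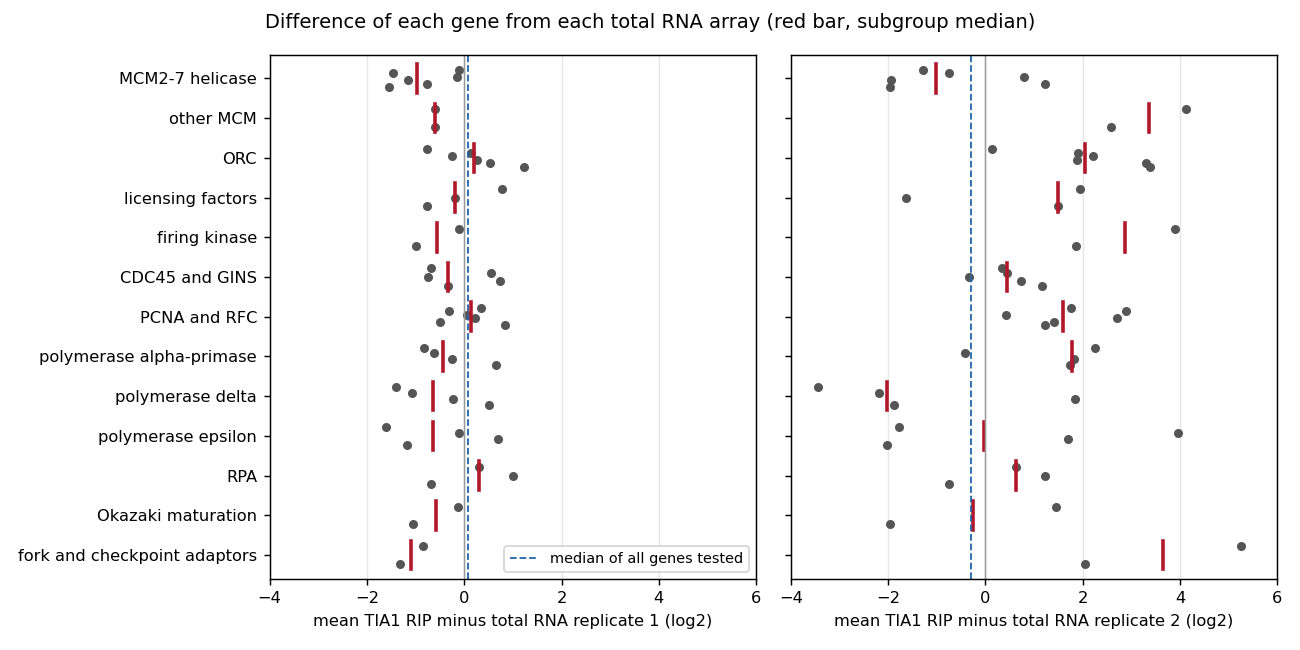
Mean TIA1 RIP minus total RNA replicate 1 (left) and replicate 2 (right) on the log2 scale for each tested gene (grey points) by subgroup, with the subgroup median as a red bar and the median of all genes tested as a dashed line. The medians of MCM2-7, Okazaki maturation and polymerases delta and epsilon are below 0 in both panels, those of ORC, PCNA with RFC and RPA are above 0 in both, and the fork adaptors move from -1.09 to 3.65. Neither tested adaptor was well above background on total RNA replicate 2. In the right panel Okazaki maturation (-0.26) and polymerase epsilon (-0.03) have genes on both sides of 0, and all genes have a median of -0.29.

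The DNA polymerase subunits included the lowest gene and one of the 5 highest. POLD1, the catalytic subunit of polymerase delta (chr19:50887461-50921275 in GRCh37), measured 2.02 and 1.72 in TIA1 RIP against 3.27 and 5.32 in total RNA. Both TIA1 RIP values were below both total RNA values. The difference was -2.42 (SE 0.94, adjusted p = 0.776 in limma, n = 2 a group) and was -1.40 and -3.45 against total RNA replicates 1 and 2. POLD2, an accessory subunit of the same enzyme, measured 1.73 and 1.57 against 2.72 and 3.83, a difference of -1.63 (SE 0.82). The groups did not overlap. The other subunits, POLD3 and POLD4, overlapped and had opposite signs against the 2 total RNA arrays: POLD3 was at -0.23 and 1.85, and POLD4 at 0.50 and -1.88.

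Polymerase epsilon had subunits on both sides. POLE, its catalytic subunit, measured -3.23 and -2.54 in TIA1 RIP against -1.27 and -1.12 in total RNA, a difference of -1.69 (SE 0.79). It was among the dimmest genes listed and was not well above background on total RNA replicate 2, so the groups did not overlap but only 1 total RNA array measured it. POLE4, a small histone-fold subunit, measured 3.52 and 2.73 against 4.30 and 5.15, a difference of -1.60 (SE 0.83), and its 2 probes gave -1.56 and -1.63. POLE3, the histone-fold partner of POLE4, measured 5.24 and 4.64 against 4.24 and 3.24, a difference of 1.20 (SE 0.83). Neither partner overlapped between groups, and they lay on opposite sides, at -1.17 and 0.70 against total RNA replicate 1. POLE2 measured 1.28 and 0.67 against 1.09 and -2.98, so that its mean difference of 1.92 (SE 1.33) was -0.11 against total RNA replicate 1. It too was not well above background on total RNA replicate 2.

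In the polymerase alpha and primase complex, which lays down the primers, PRIM2 measured 0.51 and 0.59 in TIA1 RIP against -0.10 and -1.19 in total RNA. TIA1 RIP was above both total RNA arrays, with a difference of 1.20 (SE 0.82), and its 3 probes were 0.32, 0.58 and 1.04 above total RNA replicate 1. Only 1 of these probes was well above background on total RNA replicate 2, and its difference from both total RNA arrays was 0.59. POLA2 was below both, at -0.61 and -0.42 against replicates 1 and 2, though its groups overlapped under the other background correction and quantile normalization. POLA1 and PRIM1, the catalytic subunits of the polymerase and the primase, were at -0.83 and -0.25 against total RNA replicate 1 and at 2.26 and 1.82 against replicate 2.

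The clamp PCNA and its loader, replication factor C (RFC), had a median difference of 1.04, and 0.14 against total RNA replicate 1. PCNA measured 4.20 and 3.89 in TIA1 RIP against 3.69 and 2.28 in total RNA, a difference of 1.06 (SE 0.86), and its 3 probes were 0.30 to 0.38 above total RNA replicate 1. RFC5 measured 4.76 and 4.6 against 3.85 and 3.46, a difference of 1.03 (SE 0.77). For both genes TIA1 RIP was above both total RNA arrays, and for RFC5 the difference was 0.83 against replicate 1 and 1.22 against replicate 2. RFC3 measured 0.66 and 0.53 against 0.36 and -2.11, a difference of 1.46 (SE 1.01), of which 0.23 remained against replicate 1. Its 2 probes had opposite signs against replicate 1, at 0.80 and -0.34, and neither was well above background on replicate 2. RFC2, the lowest of the loader, measured 2.55 and 2.44 against 2.44 and 2.08, a difference of 0.23 (SE 0.77). Those groups only just did not overlap, with TIA1 RIP replicate 2 and total RNA replicate 1 level to 2 decimals. RFC4 and RFC1, the large subunit, were at -0.51 and -0.32 against replicate 1 and at 1.41 and 2.90 against replicate 2.

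RPA, the trimer that coats single-stranded DNA, had subunits on both sides in arrays that differed little between total RNA replicates. RPA2 measured 2.92 and 2.94 in TIA1 RIP against 1.94 and 1.71 in total RNA, a difference of 1.11 (SE 0.77, adjusted p = 0.776 in limma, n = 2 a group), with 0.99 and 1.22 against replicates 1 and 2. RPA3 measured 4.27 and 4.83 against 5.24 and 5.29, a difference of -0.72 (SE 0.78). RPA2 was above and RPA3 below both total RNA arrays, the latter not under the other background correction or quantile normalization. RPA1, the large subunit, was above both arrays by 0.31 and 0.63. The 2 kept probes of RPA2 gave 1.04 and 1.18.

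Of the enzymes that complete Okazaki fragments, the ligase LIG1 measured 1.88 and 1.54 in TIA1 RIP against 2.75 and 3.68 in total RNA, a difference of -1.51 (SE 0.81). TIA1 RIP lay below both total RNA arrays. The flap nuclease FEN1 overlapped, at -0.13 and 1.45 against replicates 1 and 2. WDHD1, which links the helicase to polymerase alpha, had the second highest mean difference and the widest gap between the total RNA arrays. It measured 2.05 and 2.06 in TIA1 RIP, 2.90 in total RNA replicate 1 and -3.19 in replicate 2. TIA1 RIP lay between the total RNA arrays, so that the mean difference of 2.20 (SE 1.79) was -0.85 against replicate 1 and 5.25 against replicate 2. Its linear signals were 6265, 5282, 5334 and 7.64, over 9 or 10 spots an array. TOPBP1, a scaffold of origin firing and of the checkpoint, was at -1.33 and 2.05. CLSPN, a checkpoint adaptor, was above background on TIA1 RIP replicate 1 and total RNA replicate 1 only and was not tested, with values of -2.42 and -3.37 in TIA1 RIP and -0.37 and -3.25 in total RNA.

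**Figure D3:**
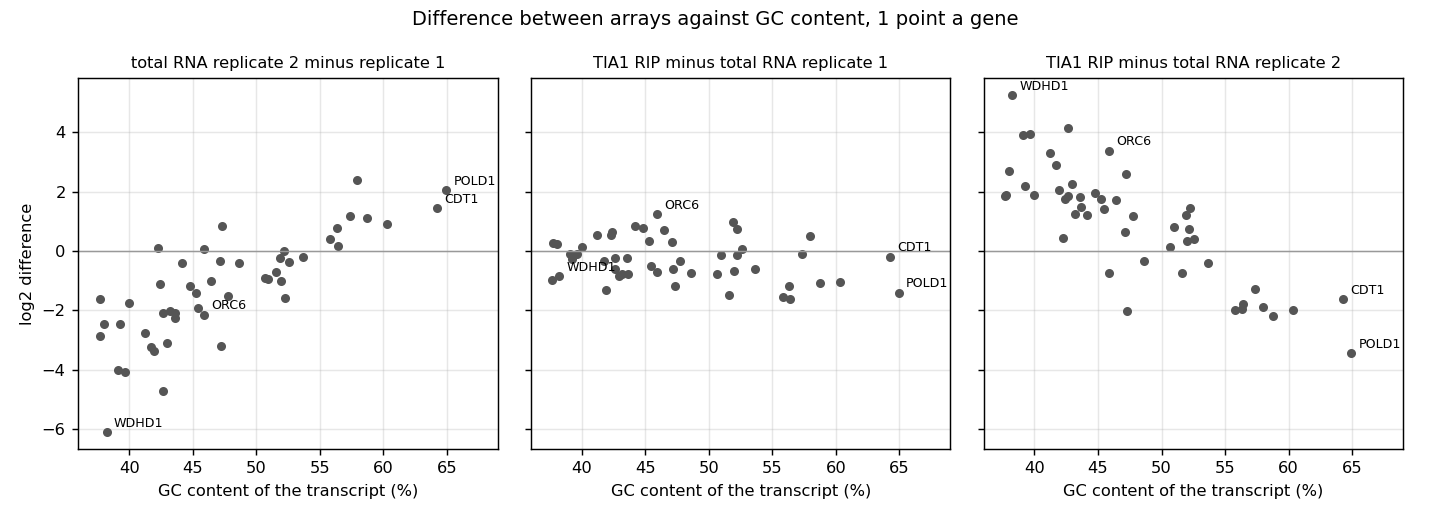
Log2 difference of the 49 tested genes (y axis) against the GC content of their transcripts in percent (x axis), for total RNA replicate 2 minus replicate 1, TIA1 RIP minus total RNA replicate 1 and TIA1 RIP minus total RNA replicate 2. The first panel rises with GC content, from WDHD1 to POLD1, the last one falls, and the middle one spans -1.61 to 1.24.

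The gap between the total RNA arrays moved with the base composition of the genes. Across the 49 genes, total RNA replicate 2 minus replicate 1 correlated with transcript GC content with Pearson's r = 0.80 (Spearman's rho 0.82), and over 11637 genes of the array with r = 0.69. TIA1 RIP minus total RNA replicate 2 gave r = -0.84 over the 49 (-0.71 over the 11637), and TIA1 RIP minus replicate 1 r = -0.28 (-0.05). Points of one panel share the same arrays, and genes are not independent replicates. In the 17 genes of lowest GC content (37.7% to 43.2%), which hold WDHD1, CDC7, ORC5 and POLE2, the median was 2.20 against replicate 2 and -0.23 against replicate 1. In the 16 of highest GC content (51.6% to 64.9%), which hold POLD1, CDT1, LIG1 and MCM7, it was -1.45 and -0.65. Over all genes the medians against replicates 2 and 1 were 1.87 and 0.14 at up to 43.2% GC, and -1.38 and 0.04 from 51.0% up. The part of base composition and of the low signal of total RNA replicate 2 in the differences was not tested.

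Same-numbered arrays share none with the other pair. Across the 49 genes, TIA1 RIP replicate 1 minus total RNA replicate 1 and TIA1 RIP replicate 2 minus total RNA replicate 2 correlated with r = 0.40 (rho 0.36). With the numbers crossed, r was 0.24 (rho 0.25). Over all 13040 genes the values were 0.45 for same-numbered and 0.0005 for crossed arrays.

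Without total RNA replicate 1, which leaves replicate 2 as the only comparison and assumes that it varies as the TIA1 RIP arrays do, 14 replication genes were higher past the adjusted threshold (limma, background 14.2%) and 4 were lower (background 15.7%). The higher ones were MCM8, MCM10, ORC2, ORC3, ORC4, ORC5, ORC6, CDC7, RFC1, RFC3, POLA1, POLE2, WDHD1 and TOPBP1, and the lower ones MCM7, POLD1, POLD2 and LIG1. Of the 14, all but ORC3, ORC5 and ORC6 were not well above background on that array. Without total RNA replicate 2, none was called (limma, background 0% in each direction), with 0 higher (background 4.09%) and 4 lower (background 5.8%) at an unadjusted p under 0.05, and 19 genes changed the sign of their difference. The 4 lower ones were MCM7, POLD1, POLE and TOPBP1. With the replicate number as a block, again none was called (limma, background 0.437% higher and 2.29% lower), with 6 higher (background 6%) and 2 lower (background 8.08%) at an unadjusted p under 0.05. With the GC trend of each array removed as well, none was called (background 0% in each direction), with 3 higher (background 8.48%) and 4 lower (background 8.89%) at that p.

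The study judged enrichment in the immunoprecipitate against GAPDH and took mRNAs past 2.5-fold both on arrays and by sequencing. Only the array part of this criterion was computed here for the replication genes. With both total RNA arrays, 40 of the 49 were more than 2.5-fold above GAPDH (81.6%, background 72.4%) and none was more than 2.5-fold below it. With total RNA replicate 1 alone, 13 were (26.5%, background 42.3%). The 40 include genes not well above background on total RNA replicate 2, which passed the filter on dim probes only through TIA1 RIP. For those genes a value past GAPDH with both arrays is not evidence of enrichment. Among the 35 genes above background on all 4 arrays, 27 were past 2.5-fold with both total RNA arrays (77.1%, all such genes 65.3%). With replicate 1 alone 11 were (31.4%, all such genes 41.0%). GAPDH itself was 2.06 lower in TIA1 RIP than in total RNA on the log2 scale, and 1.08 lower than replicate 1. ORC6 was the highest in both, at 4.37 with both arrays and 2.31 with replicate 1, followed against replicate 1 by RPA2 at 2.07. POLD1 was the lowest with both arrays, at -0.36.

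**Figure D4:**
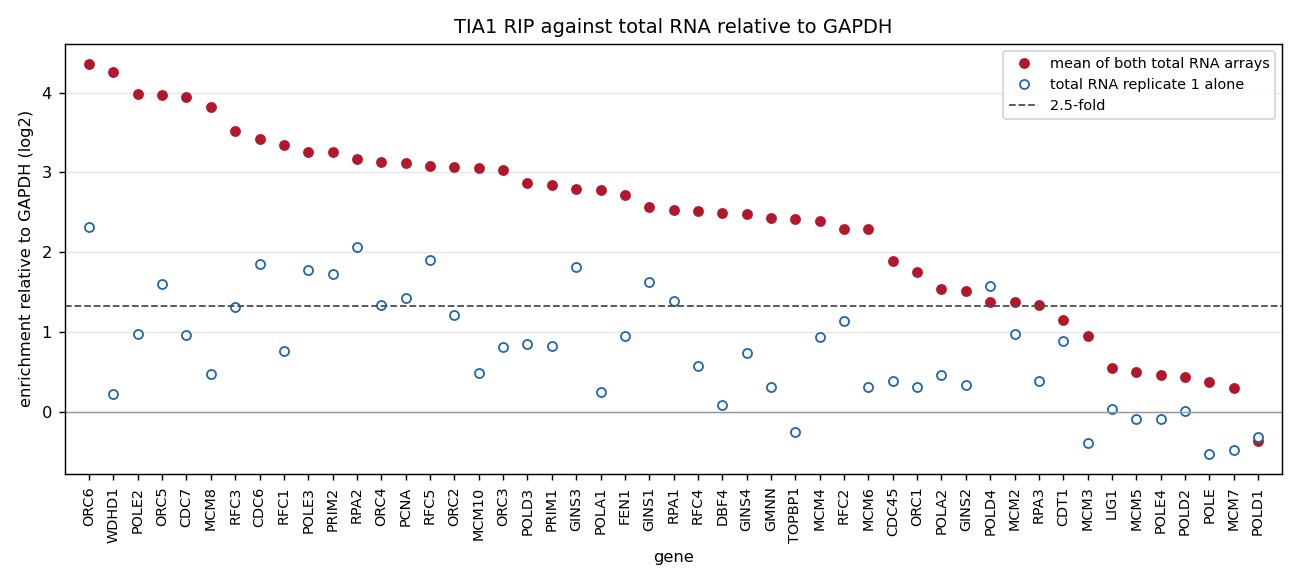
Enrichment in TIA1 RIP over total RNA relative to GAPDH (y axis, log2) for each tested gene, ordered by its value with both total RNA arrays (filled red) and with the value from total RNA replicate 1 alone as open blue circles. The dashed line marks 2.5-fold, passed by 40 genes with both arrays and by 13 with replicate 1 alone. The 40 include genes not well above background on total RNA replicate 2, kept only through TIA1 RIP.

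In U content and motifs of the 3′ UTR, the replication genes were near the other genes of the array. By the median, their 3′ UTRs were shorter and their GC content was lower. Their median 3′ UTR was 812 bases long (993 over the tested genes with an annotated coding transcript), with 30.4% U (29.3% over all) and a median of 18 U in the richest 30-base window (18 over all). An AUUUA motif was found on the transcript strand of the 3′ UTR of 30 of 50 (60%, against 65.9% of all genes), and a run of 5 U in 39 (78%, against 74.4%). Median transcript GC content was 45.9%, below the 50.3% of all genes. The 3′ UTRs of polymerase delta had the lowest median U content of the subgroups, at 21.7%, and its genes the highest median GC content, at 58.4%. Across the 49, U content of the 3′ UTR correlated with TIA1 RIP minus total RNA replicate 1 with r = 0.14 (rho 0.14), and with TIA1 RIP minus replicate 2 with r = 0.45 (rho 0.37). Over 11468 genes of the array these values were r = 0.07 and 0.58. Total RNA replicate 2 minus replicate 1, which holds no TIA1 RIP array, gave r = -0.44 over the 49 and -0.55 over the 11468.

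Other genes of DNA replication, from a list of 35 that holds chromatin assembly, nucleotide supply and fork protection, were counted beside them. Of these, 33 were tested and none passed the adjusted threshold (limma, with 0 higher, background 1.1%, and 2 lower, background 4.02%, at an unadjusted p under 0.05). Their median difference was 0.30, and -0.18 and 0.61 against total RNA replicates 1 and 2, and 10 lay above (30.3%, background 19.4%) and 10 below (30.3%, background 21.7%) both total RNA arrays. Those above include genes, ASF1A among them, that were not well above background on total RNA replicate 2. Such genes passed the filter on dim probes only through TIA1 RIP, so their place above both arrays is not evidence of enrichment. Against total RNA replicate 1, the measured values of both TIA1 RIP arrays were more than 2.5-fold above for ASF1A (background 2.74%), a histone chaperone at -2.11 and -2.22 against -3.78 and -3.33. ASF1A was not well above background on either total RNA array, and against the lowest signals well above background there it was at least 1.14-fold higher in TIA1 RIP. They were more than 2.5-fold below for 3 genes. The helicase RECQL4 measured 1.83 and 1.94 against 3.34 and 5.70, the clamp loader subunit CHTF18 1.36 and 1.18 against 2.81 and 4.83, and the maintenance methyltransferase DNMT1 0.01 and -0.47 against 1.57 and 0.33. Of 2 further genes of S phase entry, the ubiquitin ligase subunit SKP2 measured 1.81 and 2.33 in TIA1 RIP against 1.09 and 0.81 in total RNA, and cyclin A2 (CCNA2) 2.71 and 2.25 against 1.87 and 0.59. Both lay above both total RNA arrays, with differences of 1.12 (SE 0.78) and 1.25 (SE 0.85) and an adjusted p = 0.776 in limma.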

How the data were processed

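For each of the 4 single-colour arrays, the authors deposited spot tables from Agilent Feature Extraction (10.7.1.1 in the file headers), in which the processed signal of a spot is a background-corrected fluorescence intensity on a linear scale, not normalized between arrays. The deposited files name the build hg19 (GRCh37). Of 58717 spots, 299 to 382 an array were flagged as uneven or deviant and left out. log2 signal was centred on the 75th percentile of each array, and a probe was kept if, on both arrays of either group, a share of 0.5 or more of its spots passed the well-above-background flag (20100 probes). Symbols came from RefSeq accessions and GENCODE 44 transcripts on GRCh37 (34510 of 50599 probes), and probes of a gene were averaged. Transcript features used the transcript with the longest coding sequence. The Ensembl canonical transcript, an alternative chosen after seeing the data, gave the printed windows. With it the median 3′ UTR of the replication genes was 996 bases (1178.5 over the tested genes). Their median GC content was 45.3% (49.9% over the tested genes).

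limma 3.58.1 (lmFit, eBayes) in R 4.3.3 compared the groups over 13040 genes with Benjamini-Hochberg adjustment, after the script had been tested on simulated data. Alternatives covered background correction (normexp, offset 50), scaling, detection, probe choice, replicate block, GC content and each array left out. Members, lists and alternatives were chosen with earlier results of these data known. Values of all 4 arrays were given for genes with 4 differences of 1 sign and a mean of at least 1, for the 5 highest and 5 lowest, and for the highest and lowest of MCM2-7, ORC, GINS, RFC, RPA and all DNA polymerase subunits as 1 set. Other replication genes were named past 2.5-fold against total RNA replicate 1 in both TIA1 RIP arrays. RNA from IgG precipitates and sequencing were not analysed here.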

Additional observations from a re-analysis of the deposited data

How the results depend on the processing

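No replication gene passed the adjusted threshold in limma under the other background correction (normexp), quantile normalization, either detection filter, the brightest probe or the replicate block (at most 1 higher and 2 lower at an unadjusted p under 0.05 outside the block), and each alternative left a median difference over these genes above 0. Outside the block, the share of all genes at that p is not given here, so these counts have no background beside them. Both TIA1 RIP arrays lay below both total RNA arrays for 7 genes in place of 11 with normexp and with quantile normalization (14.3% each, against 22.2% and 17.6% of all genes), the same 7 being among the 11, and GINS2, MCM3, POLA2 and RPA3 were lost. Of the 13 above both, ORC5 was lost with normexp, ORC4 with the brightest probe, ORC4 and RFC3 (and POLE below) with probes above background on all 4 arrays, and RPA1 without a filter. Quantile normalization moved the median of all genes by 0.30. Under normexp the medians of MCM2-7 and RPA were -0.45 and 0.91, and under quantile normalization -0.33 and 1.07, for main values of -0.90 and 0.47. The count past 2.5-fold relative to GAPDH was 25 with quantile normalization (51.0%, all genes 33.7%), 9 with the median of all genes as the reference (18.4%, all genes 12.7%), and 35 with ACTB (71.4%, all genes 65.8%). Signs turned for MCM10 (-0.018), CDC45 (0.21) and TOPBP1 (-0.18) under normexp, CDC45 (0.047) and POLD4 (0.22) under quantile normalization, and DBF4 (-0.48) without a detection filter.

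The replicate numbers are shared by the groups, but the sources used here do not say that a number marks a culture or day. Over all genes, the deviations of same-numbered arrays correlated with r = 0.453, and with 2 pairs this settles no pairing. With the replicate block, the adjusted threshold was passed by 57 genes with higher and 299 with lower values in TIA1 RIP, and by no replication gene. With the block and the GC trend of each array removed, no gene passed, the median over the replication genes went from 0.47 to 0.075, and from 0.50 to 0.030 after subtracting that of all genes. The medians became -0.49 for polymerase delta, 0.025 for ORC, 0.032 for CDC45 and GINS, 0.49 for PCNA and RFC, and 0.078 for Okazaki maturation. In that fit signs turned for MCM6 (-0.41), ORC3 (-0.025), ORC4 (-0.041), CDT1 (0.096), GMNN (-0.24), DBF4 (-0.68), CDC45 (0.032), GINS1 (-0.23) and TOPBP1 (-0.40). The slide and scan date could not be a block, since all 4 arrays share them.

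Leaving out each array in turn gave 0 to 1849 genes higher and 0 to 2052 lower, 0 to 14 replication genes higher and 0 to 4 lower, 13 to 33 above and 12 to 24 below all total RNA arrays, and 13 to 41 past 2.5-fold relative to GAPDH. The share of all genes moved as well. Against total RNA replicate 1 alone, 41.2% of all genes lay above and 35.5% below, and against replicate 2 alone 39.6% and 49.7%. Past 2.5-fold relative to GAPDH were 42.3% of all genes with replicate 1 alone and 72.4% with both total RNA arrays. For the fits without a TIA1 RIP array, and for the GAPDH count with replicate 2 alone, the share of all genes is not given here. The median over the replication genes ran from -0.26 to 1.24, and minus that of all genes from -0.33 to 1.53. Subgroup medians ran from -1.31 to -0.49 for MCM2-7, -0.60 to 3.36 for MCM8 and MCM10, 0.20 to 2.05 for ORC, -0.19 to 1.49 for licensing, -0.56 to 2.88 for the firing kinase, -0.34 to 0.66 for CDC45 and GINS, 0.14 to 1.59 for PCNA and RFC, -0.43 to 1.78 for polymerase alpha, -2.03 to -0.65 for delta, -0.64 to 0.15 for epsilon, 0.31 to 0.63 for RPA, -0.71 to -0.14 for Okazaki maturation and -1.09 to 3.65 for the adaptors. Over these 4 fits the difference changed sign for 21 genes, 19 of them without total RNA replicate 2, with ranges for MCM4 (-0.14 to 0.80), MCM6 (-0.77 to 1.24), MCM8 (-0.60 to 4.13), MCM10 (-0.60 to 2.59), ORC1 (-0.77 to 0.14), ORC3 (-0.26 to 2.20), GMNN (-0.77 to 1.49), CDC7 (-0.12 to 3.89), DBF4 (-0.99 to 1.86), CDC45 (-0.73 to 0.38), GINS4 (-0.34 to 1.17), RFC1 (-0.32 to 2.90), RFC4 (-0.51 to 1.41), POLA1 (-0.83 to 2.26), PRIM1 (-0.25 to 1.82), POLD3 (-0.23 to 1.85), POLD4 (-1.88 to 0.50), POLE2 (-0.11 to 3.96), FEN1 (-0.13 to 1.45), WDHD1 (-0.85 to 5.25) and TOPBP1 (-1.33 to 2.05). The cause was not tested.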
